A study of Mus musculus with 9 samples.

Results

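The genes described here are the mouse zinc finger genes whose symbol is Zfp followed by a number and that were expressed in preimplantation embryos. Zfp42, Zfp57 and Zfp352 were left out, and a gene was kept where its mean over all 9 RNA-seq libraries was at least 100 normalised counts. Of 352 Zfp-numbered genes in the deposited table, 349 remained after those 3, and 165 of these reached the mean. The table held 20087 named genes in all, so the 165 were a small share of it. They were thus chosen by measured values, the mean of all 9 libraries, so their level is a description and is not tested. For 6 of the 165 the mean was at least 100 in 1 group only: Zfp28 and Zfp750 in Sin3a KD, Zfp428, Zfp865 and Zfp866 in Hdac1/2 cKD, and Zfp558 in NC, groups that are explained next. Such a gene reached the list through the group where it is high, so its difference between that group and another is tied to the choice of members. Among these 6, Zfp428 and Zfp750 were called in a comparison. Their values are given below as a description, with no test result, but the counts, shares and medians below still include them.

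The study injected B6D2F1 mouse zygotes with 1 of 3 kinds of siRNA and sequenced polyadenylated RNA at E2.75, the morula stage. Embryos of the group NC received a nonspecific control siRNA, those of Hdac1/2 cKD received siRNA against Hdac1 and Hdac2 together, and those of Sin3a KD received siRNA against Sin3a. Each group had 3 libraries of 60 pooled embryos. Every group was injected, and embryos without an injection are not analysed here. The labels do not say whether the 3 pools of a group came from separate days, so p-values measure the spread between these pools, which may be technical. An siRNA lowers a transcript without removing it, and a pool averages over embryos and their cells.

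Most Zfp genes encode proteins with tandem C2H2 zinc fingers, each of which holds a zinc ion and can contact a few bases of DNA. A large subset also carries a KRAB box, which binds the corepressor Trim28, and Trim28 in turn brings the H3K9 methyltransferase Setdb1 and heterochromatin proteins to the bound site. KRAB zinc finger proteins are known for silencing retrotransposons and imprinted regions in early embryos and embryonic stem cells. Other proteins under the same symbol have different work, among them RNA decay, ribosome assembly and spindle assembly. Hdac1 and Hdac2 are histone deacetylases that act in several corepressor complexes, and Sin3a is the scaffold of one of them.

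The targeted transcripts were read first. Hdac1 lay at 4925 to 6245 normalised counts in NC and at 769.6 to 1052 in Hdac1/2 cKD, and Hdac2 at 2020.3 to 2492 and 193 to 371. Sin3a lay at 1215 to 1779 in NC and at 354 to 520.1 in Sin3a KD. Hdac1 was also low in Sin3a KD, at 1333 to 2597, while Hdac2 there was at 2008 to 2136. Sin3a in Hdac1/2 cKD was at 1903 to 2240, above all NC libraries but not called (limma adjusted p = 0.0693). Depth, estimated from the smallest steps between values, ran from 8.37 M to 16.95 M reads, and NC held both extremes (replicates 3 and 1). Lanes were not balanced: replicates 1, 2 and 3 ran on lanes 5, 2 and 3 for NC, lanes 2, 2 and 3 for the Hdac1/2 knockdown and lanes 4, 3 and 3 for the Sin3a knockdown. All 14 morula and early lineage markers were above 0 in at least 1 library, though Sox17 was at 0 throughout NC. Of the 13 tested 8 fell in Hdac1/2 cKD against NC (61.5%) and 3 in Sin3a KD against NC (23.1%). Called lower over all tested genes were 7.8% and 4.36%, and over those with a mean of at least 100 11.5% and 6.44%. Summed, the 14 gave 30275 to 33836 normalised counts in Hdac1/2 cKD libraries, against 41450 to 45511 for NC and 41180.0 to 44001 for Sin3a KD. Pou5f1 was the largest part of these sums, at 13954.5 to 16141.5 in Hdac1/2 cKD, 19065 to 19477 in NC and 19180 to 20929.6 in Sin3a KD. Markers of oocyte or polar body RNA summed to 201 to 363 per library, sperm markers to 0 to 11.2 and markers of the 2-cell-like state to 209 to 594. Cumulus markers summed to 7.41 to 23.9 in NC libraries, 33.1 to 44.5 in those of Hdac1/2 cKD and 31.5 to 53.2 in those of Sin3a KD. No tested member of these last 4 lists was called by limma, and at an unadjusted p below 0.05 the 1 tested cumulus marker was higher in both knockdowns against NC and 1 oocyte marker was higher in Hdac1/2 cKD against Sin3a KD. The part of these markers in the results below was not tested.

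Reading frames in the GENCODE vM21 transcripts sorted the 165 genes by protein. A KRAB box and C2H2 fingers were found in 46 of them, with 7 to 23 fingers and a median of 12. Another 96 had at least 3 C2H2 fingers and no match to the KRAB pattern, with up to 36 fingers and a median of 9. The remaining genes were 16 with 0 to 2 such fingers and 4 that matched a pattern for CCCH fingers (Zfp36, Zfp36l1, Zfp36l2 and Zfp330). A match to that pattern describes the spacing of residues and does not show the type of finger. Another 3 had no complete reading frame, and the annotation lists them as transcribed pseudogenes (Zfp939, Zfp640 and Zfp125). A wider KRAB pattern, chosen after the sequences were seen, raised the KRAB class to 57. Either pattern can miss a KRAB box, so a gene without a match is not shown to lack one. In the genome 61 of the genes lay in 13 clusters, each a chain of Zfp genes with starts no more than 500 kb apart that held at least 3 of the 165. Chromosome 7 held 5 of the clusters and chromosome 17 held 2. The larger on chromosome 17, chr17:21008903-22377281 (GRCm38), held 9 of the genes, 6 of them with a KRAB match.

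Promoter sequences were available for 136 of the 165 genes in the RefSeq table on GRCm38.p6. In the 250 bases before the start, CCAAT, the letters bound by NF-Y, was present on either strand in 52.2% of the Zfp promoters, against 34.5% of all 27025 promoters of the table and 36.7% of the 9721 promoters of tested genes. Among the 42 KRAB genes with a promoter the share was 71.4%, and among the other 94 it was 43.6%. CACGTG, an E-box, was in 19% of the KRAB promoters, in 3.19% of the others and in 8.48% of promoters of tested genes. GGGCGG, the GC box read by Sp and Klf factors, went the other way, with 33.3% of KRAB promoters, 56.4% of the others and 59.3% of promoters of tested genes. KRAB promoters held a median of 8 CG pairs, the other Zfp promoters 14 and promoters of tested genes 16. The letters CCGGAAG (ETS factors), TGACGTCA (CREB factors) and GCATGCGC (the core read by NRF1) were in 17.6%, 3.68% and 4.41% of the Zfp promoters, against 13.8%, 2.78% and 4.62% of promoters of tested genes. Matches to different motifs were counted separately where they overlapped, and a match describes the letters only.

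5 promoters are shown, 3 of genes that fell in Hdac1/2 cKD and 2 of genes that were higher there, because they span the range from CCAAT with an E-box and few CG pairs to GC boxes and many. Each reads 5′ to 3′ on the strand of the gene, up to the first base of the GENCODE gene model or the RefSeq start, with matches to the 6 motifs in capitals.
Zfp97, chr17:17121133-17121382, plus strand: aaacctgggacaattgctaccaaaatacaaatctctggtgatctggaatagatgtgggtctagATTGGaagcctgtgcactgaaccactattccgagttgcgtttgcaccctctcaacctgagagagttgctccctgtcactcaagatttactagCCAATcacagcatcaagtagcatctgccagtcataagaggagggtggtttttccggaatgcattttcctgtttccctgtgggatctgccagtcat
Zfp820, chr17:21845773-21846009, minus strand: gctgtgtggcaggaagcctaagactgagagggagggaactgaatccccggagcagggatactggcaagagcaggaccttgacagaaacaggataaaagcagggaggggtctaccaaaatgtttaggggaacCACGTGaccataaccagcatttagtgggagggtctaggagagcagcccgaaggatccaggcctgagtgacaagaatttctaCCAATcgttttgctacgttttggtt
Zfp207, chr11:80383029-80383278, plus strand: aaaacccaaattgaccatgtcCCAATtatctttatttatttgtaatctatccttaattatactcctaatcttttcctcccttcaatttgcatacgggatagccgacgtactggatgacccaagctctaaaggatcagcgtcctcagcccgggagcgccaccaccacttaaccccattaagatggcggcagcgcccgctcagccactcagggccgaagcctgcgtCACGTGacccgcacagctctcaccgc
Zfp428, chr7:24506837-24507005, plus strand: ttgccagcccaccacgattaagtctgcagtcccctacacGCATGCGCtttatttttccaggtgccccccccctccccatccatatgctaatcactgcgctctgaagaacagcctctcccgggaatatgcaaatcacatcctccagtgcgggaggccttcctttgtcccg
Zfp326, chr5:105876318-105876564, plus strand: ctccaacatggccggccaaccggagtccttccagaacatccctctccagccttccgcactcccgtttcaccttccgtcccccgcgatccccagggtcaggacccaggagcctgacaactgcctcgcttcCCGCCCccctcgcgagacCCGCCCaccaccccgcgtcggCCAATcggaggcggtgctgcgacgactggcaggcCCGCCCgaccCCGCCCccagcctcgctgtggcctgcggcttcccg
The capitals mark CCAAT on both strands for Zfp97, CACGTG and CCAAT for Zfp820 and Zfp207, the NRF1 core for Zfp428, and 4 GC boxes and CCAAT for Zfp326. The windows hold 3 CG pairs for Zfp97, 5 for Zfp820, 14 for Zfp207, 7 for Zfp428 and 25 for Zfp326. These 5 do not stand for their directions in Hdac1/2 cKD against NC. Of the 12 promoters of genes called lower and the 5 of genes called higher, CCAAT was in 58.3% and 60%. CACGTG was in 16.7% and 0%, GGGCGG in 25% and 60%, and the median number of CG pairs was 10.5 and 12. A difference in motifs by direction was not tested.

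The 165 genes together took 0.717% to 0.793% of each library's total. Their mean levels ran from 100.9 to 7340 normalised counts with a median of 262.7, and 17 reached 1000. These levels are not divided by transcript length, so their order is an order of counts and not of transcript number. The highest mean belonged to Zfp706, a small single-finger protein known from the exit from pluripotency, followed by the RNA-binding protein Zfp106 (mean 7075), Zfp568, a KRAB repressor of the placental Igf2 promoter (5217), the spindle protein Zfp207 (3015) and Zfp280b (2818). At the threshold, Zfp36l1, Zfp534, Zfp69, Zfp865 and Zfp866 lay just inside with means of 106.1, 106.0, 103.0, 101.3 and 100.9. Zfp120, Zfp955a, Zfp68, Zfp948 and Zfp280c lay just outside with 97.1, 93.5, 93.1, 92.9 and 92.9. Between the 3 libraries of a group the coefficient of variation had a median of 21.4% in NC, 12.8% in Hdac1/2 cKD and 13% in Sin3a KD.

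One gene behaved unlike the rest. Zfp775, a C2H2 protein of the chromosome 6 cluster, was listed at 0, 449 and 0 normalised counts in the 3 NC libraries, at 293, 118 and 0 in Hdac1/2 cKD and at 0, 179 and 0 in Sin3a KD. It was thus at 0 in 5 libraries spread over all groups and at 118 or more in the other 4. An exact 0 in such a table can be a failed estimate. It was not called in any comparison. In a principal component analysis of the members without Zfp775 the first component held 33.9% of the variance and placed Hdac1/2 cKD at -4.12 to -2.70, NC at -1.56 to 0.927 and Sin3a KD at 3.22 to 4.63.

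The first comparison asked what knockdown of both deacetylases did to these genes. Of the 165 genes, all of which passed the filter for testing, 22 were called in Hdac1/2 cKD against NC by limma with Benjamini-Hochberg adjusted p below 0.05, 5 higher and 17 lower, that is 13.3%. The share called was 15.6% over all 13343 tested genes and 20.4% over the 8475 whose mean reached 100, the genes of like level. The Zfp share called was therefore not above the background. Zfp428, whose call is tied to the choice of members, is counted among the 5 and the 22. Called higher were 3.03% of Zfp genes, against 7.81% of all tested genes and 8.9% of those of like level, and called lower were 10.3%, against 7.8% and 11.5%. The median log2 fold change of the Zfp genes was -0.0828, against 0.0344 over all tested genes and -0.0425 over those with a mean of at least 100. When libraries were scaled to equal totals, which moved the median of all genes to 0.146, the split became 10 higher and 10 lower and the Zfp median 0.0295. Without Hdac1/2 cKD replicate 3 that median was -0.0141, and without NC replicate 2 it was -0.0219. In bulk embryos, fewer cells of a type and less RNA per cell cannot be told apart.

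**Figure D1:**
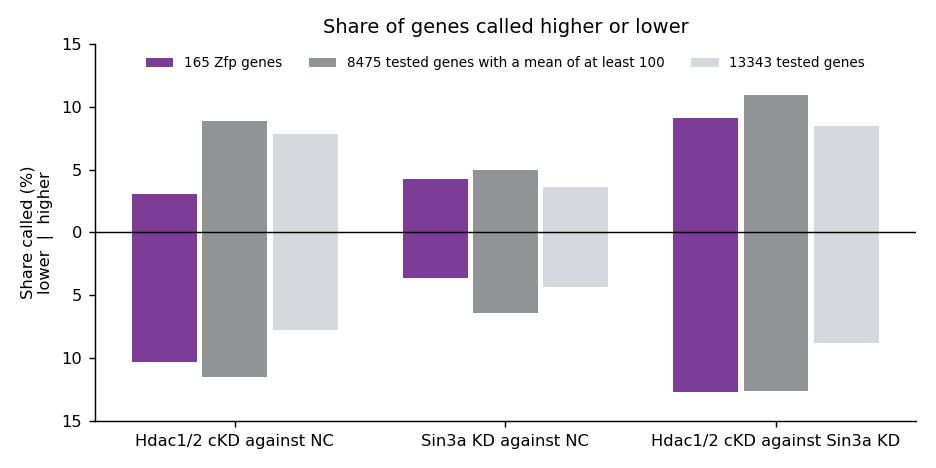
Share of genes called higher (above 0) and lower (below 0) in each comparison, in percent, for the 165 Zfp genes, the 8475 tested genes of like level and all 13343 tested genes. In Hdac1/2 cKD against NC the Zfp bar reaches 3.03% higher and 10.3% lower, and in Hdac1/2 cKD against Sin3a KD the Zfp bars are close to those of the genes of like level.

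Zfp326, a subunit of the complex that links RNA polymerase II elongation to splicing, rose. Its values were 81.3, 212 and 162 in NC, 338, 346 and 369 in Hdac1/2 cKD and 157, 177 and 129.8 in Sin3a KD. Hdac1/2 cKD libraries were alike and above both other groups, which overlapped. Its log2 fold change was 1.31 (SE 0.30, limma adjusted p = 0.0101), and with lane as a factor the adjusted p was 0.0559.

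Zfp800 rose in both knockdowns. It was at 297, 228 and 213 in NC, 477, 404 and 573 in Hdac1/2 cKD and 392, 469 and 355 in Sin3a KD. All 6 knockdown libraries lay above all 3 NC libraries. The log2 fold change was 0.98 (SE 0.20, limma adjusted p = 0.00478) in Hdac1/2 cKD, kept in all 18 alternatives, and 0.72 (adjusted p = 0.0391) in Sin3a KD, kept in 6 of them.

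Zfp652, a repressor that works with the corepressor CBFA2T3, and Zfp282 rose as well. Zfp652 was at 187, 153 and 247 in NC, 415, 338 and 339 in Hdac1/2 cKD and 176, 174 and 131 in Sin3a KD, a log2 fold change of 0.91 against NC (SE 0.23, limma adjusted p = 0.0157). Leaving out Hdac1/2 cKD replicate 1 ended that call, as did lane as a factor and dropping both NC replicate 1 and Sin3a KD replicate 1, the libraries alone on their lanes (adjusted p = 0.0716 at most over the alternatives). Abi3, transcribed from the opposite strand, overlaps 18.9% of the exon length of Zfp652. Zfp282 was at 111, 120.4 and 74.5 in NC and 205, 171 and 193 in Hdac1/2 cKD (log2 fold change 0.92, adjusted p = 0.0241), groups that did not overlap. Its call was lost without NC replicate 3 or any 1 of the Hdac1/2 cKD libraries, with lane as a factor, and without both libraries alone on their lanes (adjusted p up to 0.0849).

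Zfp428, a small protein with 1 C2H2 finger encoded at chr7:24507006-24515682 (GRCm38), is among the 5 genes counted as higher but reached the list only through Hdac1/2 cKD. It was at 56.9, 26.7 and 58.2 normalised counts in the NC libraries, 223, 197 and 193 in Hdac1/2 cKD and 66.5, 71.6 and 98.9 in Sin3a KD. Each Hdac1/2 cKD library stood above all the others, with a log2 fold change of 2.17 against NC. The sources used here give no strand setting for the counting, and 17.7% of its exon length is covered by an antisense transcript.

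The genes that fell included 6 with a KRAB match, and none with a KRAB match rose in the limma test at adjusted p below 0.05. At an unadjusted p below 0.05, 1 KRAB gene was higher and 7 were lower. The median log2 fold change of the 46 KRAB genes was -0.238, with 14 above 0, while that of the 96 C2H2 genes without a KRAB match was -0.00744, with 47 above 0, 3 called higher and 7 lower. KRAB genes were called in 13% and the C2H2 genes without a match in 10.4%, both below the 20.4% of tested genes of like level. As every KRAB call was lower, the 13% is also the share called lower. Called lower were 7.8% of all tested genes and 11.5% of those of like level, and called higher 7.81% and 8.9%. Within lane 2 the KRAB median was -0.249 and within lane 3 it was -0.289, and it stayed between -0.281 and -0.148 whichever library was left out. The median of the C2H2 genes without a match changed sign with single libraries: it was 0.0683 without NC replicate 1, 0.0634 without NC replicate 2 and -0.0902 without NC replicate 3, and 0.0313 with lane as a factor. With libraries scaled to equal totals it was -0.126, against 0.105 for the C2H2 genes without a match and 0.146 for all genes. By the wider pattern 0 of 57 rose and 8 fell, with a median of -0.241. At an unadjusted p below 0.05 these counts were 1 and 11. No test compared the classes, and many KRAB genes are related in sequence. A KRAB gene missed by a pattern is counted among the genes without a match. These counts and medians thus hold for matches to the patterns only.

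**Figure D2:**
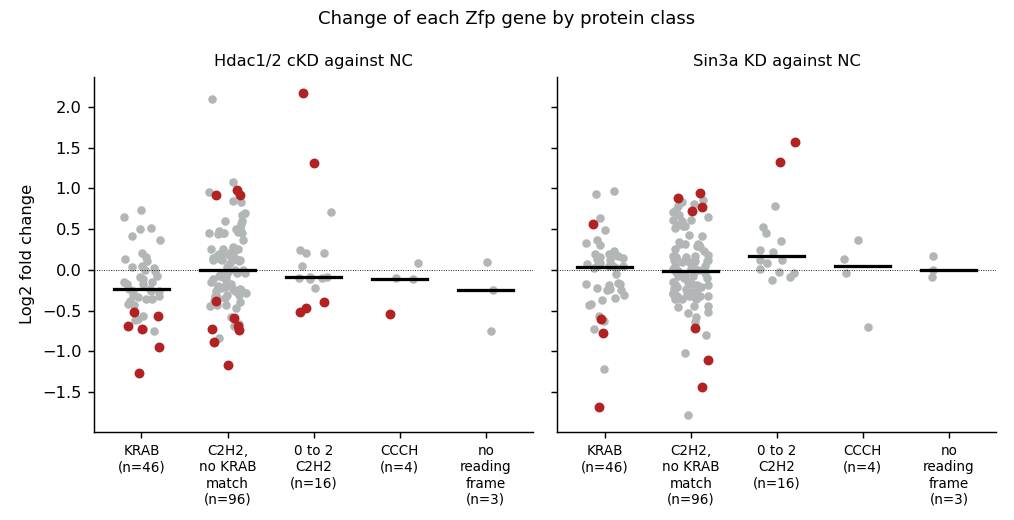
Log2 fold change of each of the 165 Zfp genes in Hdac1/2 cKD against NC (left) and Sin3a KD against NC (right), by protein class; red points passed the limma test, grey points did not, and black bars are class medians. The KRAB median is -0.238 on the left and 0.0344 on the right, and the red KRAB points on the left are all below 0.

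The 3 lowest adjusted p values among KRAB genes in Hdac1/2 cKD against NC belonged to genes on chromosome 17. Zfp820 fell from 1235, 1134 and 1187 normalised counts in NC to 764, 693 and 699 in Hdac1/2 cKD, with 1033, 1066 and 945 in Sin3a KD. The 3 groups did not overlap, with Sin3a KD in between. Its log2 fold change against NC was -0.72 (SE 0.12, limma adjusted p = 0.00116) and was kept in every one of the 18 alternatives.

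Zfp960 (chr17:17064113-17089628) and Zfp97 (chr17:17121415-17146831) are a pair of near-identical copies whose proteins match at 526 of 546 residues. Zfp960 was at 1239, 1134 and 879 in NC, 524, 533 and 616 in Hdac1/2 cKD and 707, 780.2 and 638 in Sin3a KD. For Zfp97 the NC libraries were at 881, 791 and 719, those of Hdac1/2 cKD at 504, 507 and 471 and those of Sin3a KD at 665, 710.3 and 637. Both were highest in NC and lowest in Hdac1/2 cKD, without overlap. The log2 fold changes in Hdac1/2 cKD were -0.95 (SE 0.15, limma adjusted p = 0.00124) and -0.69 (SE 0.13, adjusted p = 0.00406). Since 86.8% of the 31-base words of Zfp960 also occur in Zfp97, reads may be split between them. Their sum, which does not depend on that split, was 2120.0, 1925 and 1599 in NC, 1028, 1040.0 and 1087 in Hdac1/2 cKD and 1372, 1490.0 and 1276 in Sin3a KD, again without overlap.

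Zfp599, a KRAB gene on chromosome 9, was the only Zfp gene called in opposite directions in the 2 knockdowns. Its values were 765, 959 and 805 in NC, 567, 591 and 535 in Hdac1/2 cKD and 1251, 1262 and 1193 in Sin3a KD. All Hdac1/2 cKD libraries lay below NC and all Sin3a KD libraries above it. The log2 fold change was -0.57 (SE 0.13, limma adjusted p = 0.00861) in Hdac1/2 cKD and 0.56 (SE 0.13, adjusted p = 0.0185) in Sin3a KD. The direct difference between the knockdowns was -1.13 (SE 0.13, adjusted p = 8.40e-05), with an adjusted p of at most 0.00372 over the alternatives. The Sin3a KD call needed NC replicate 1 and Sin3a KD replicates 1 and 3, and was lost without any of them (adjusted p up to 0.179).

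Zfp932, a repressor of endogenous retroviruses, was at 763, 812 and 825 in NC, 579, 518 and 582 in Hdac1/2 cKD and 817, 820.3 and 842 in Sin3a KD. It fell in Hdac1/2 cKD by 0.52 on the log2 scale (SE 0.12, limma adjusted p = 0.0125), and the call was lost without Hdac1/2 cKD replicate 2 (adjusted p = 0.0635). Its paralog Gm15446 shares 44.2% of its 31-base words. Zfp534 had the lowest log2 fold change, -1.27 (SE 0.38, adjusted p = 0.035), with 96.9, 187 and 91.7 in NC and 31.1, 47.0 and 77.8 in Hdac1/2 cKD. It is near the floor of the list, 83.0% of its words occur in other genes, chiefly Zfp987, and its call was lost without NC replicate 2, Hdac1/2 cKD replicate 1 or Hdac1/2 cKD replicate 2 (adjusted p up to 0.136).

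Genes without a KRAB match that fell covered several kinds of work. Zfp341, an activator of Stat3 transcription, went from 272, 244 and 278 in NC to 108, 99.4 and 151 in Hdac1/2 cKD, with 177, 168 and 213 in Sin3a KD between them. Its log2 fold change was -1.16 (SE 0.23, limma adjusted p = 0.00402), kept in all 18 alternatives. Zfp207, a kinetochore protein that binds Bub3 and helps spindle assembly, went from 3536, 3784 and 2993 to 2294, 2345 and 2516, and Sin3a KD overlapped NC at 3413, 3323 and 2930.0. Its log2 fold change was -0.52 (SE 0.11, adjusted p = 0.00604), also kept in all 18.

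Lists of Zfp genes by role hold a few genes outside the 165. No list was tested as a set. Of the 9 tested genes of mRNA decay and RNA binding, 1 rose (Zfp326) and 1 fell in Hdac1/2 cKD against NC, or 22.2%. The shares over all tested genes and over those of like level were 15.6% and 20.4%. The one that fell was Zfp36l2, which binds AU-rich elements and destabilises mRNA, at 935, 866 and 942 in NC, 618, 652 and 615 in Hdac1/2 cKD and 1106, 902 and 996 in Sin3a KD. Hdac1/2 cKD was below both other groups, and the log2 fold change was -0.54 (SE 0.12, limma adjusted p = 0.0105), kept in all 18 alternatives. Its relatives did not pass the test, Zfp36 with a log2 fold change of -0.11 (SE 0.40) and Zfp36l1 with 0.09 (SE 0.26). Zfp106, Zfp346, Zfp385a and Zfp830 were at -0.07, 0.21, -0.31 and -0.23, none of them called.

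Of the 4 members that act on ribosomes or protein turnover, Zfp622, a factor of late large-subunit maturation, fell from 3124, 2467 and 2593 in NC to 2095, 2144 and 1996 in Hdac1/2 cKD (log2 fold change -0.39, SE 0.11, limma adjusted p = 0.0296). The groups did not overlap, and the call was lost without NC replicate 1 or any 1 of the Hdac1/2 cKD libraries (adjusted p up to 0.122). Zfp598, the ubiquitin ligase that senses collided ribosomes, overlapped NC, with a log2 fold change of -0.09 (SE 0.13, adjusted p = 0.7). The ubiquitin ligase Zfp91 was at 0.14 and the SUMO ligase Zfp451 at 0.19, neither called. With 1 of the 4 called, the share was 25%, against 15.6% of all tested genes and 20.4% of those of like level. Zfp706, the member with the highest mean, fell from 8137, 7693 and 8824 to 5768, 6239 and 6719 (log2 fold change -0.40, SE 0.09, adjusted p = 0.0105), and leaving out Hdac1/2 cKD replicate 1 ended the call (adjusted p = 0.0721 at most over the alternatives).

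Among 13 tested partners of corepressors, only Zfp518b fell in Hdac1/2 cKD and none rose by limma at adjusted p below 0.05. That is 7.69% called, against 15.6% of all tested genes and 20.4% of those of like level. Zfp518b, reported to bind the H3K9 methyltransferase G9a, was at 489, 853 and 435 in NC and 296, 303 and 322 in Hdac1/2 cKD (log2 fold change -0.88, SE 0.22, adjusted p = 0.0146). NC replicate 2 was far above its group, and the call was lost without Hdac1/2 cKD replicate 1 (adjusted p up to 0.0613). Zfp217, Zfp219, Zfp644, Zfp687, Zfp592, Zfp532 and Zfp277 had log2 fold changes from -0.26 (Zfp277) to 0.47 (Zfp592) and did not pass.

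Of 12 tested activators and pluripotency factors, 1 fell, Zfp263, from 446, 524 and 401 to 328, 274 and 299.97 (log2 fold change -0.60, SE 0.16, limma adjusted p = 0.0233). That call was lost without NC replicate 1 or 2 or Hdac1/2 cKD replicate 2 or 3 (adjusted p up to 0.0953). The pluripotency-linked Zfp281 and Zfp296 were at 0.23 (SE 0.12) and -0.24 (SE 0.16), and Zfp143, an activator of many housekeeping promoters, at -0.07 (SE 0.16). Zfp148, Zfp384, Zfp410, Zfp335, Zfp292, Zfp131 and Zfp64 ran from -0.20 (Zfp131) to 0.57 (Zfp64, adjusted p = 0.0542), none called. The list also names Zfp24, which stands here under its older symbol Zfp191. It was not matched and is missing from the 12, and it was not called either. Among KRAB repressors with known targets, Zfp568 was at -0.08 (SE 0.11), Zfp809, which silences murine leukaemia virus type elements, at 0.11 (SE 0.27), Zfp961 at -0.26 and Zfp110 at -0.21, and of the 9 tested only Zfp932 was called. Called were 8.33% of the 12 activators and pluripotency factors and 11.1% of the 9 repressors. Both shares were below the 15.6% of all tested genes and the 20.4% of those of like level.

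The other genes that fell in Hdac1/2 cKD against NC were Zfp874a, Zfp212, Zfp949 and Zfp593, with log2 fold changes of -0.74, -0.72, -0.69 and -0.46. None of these calls was kept whichever library was left out. That of Zfp874a was lost without NC replicate 3 or any 1 Hdac1/2 cKD library (adjusted p up to 0.0931 over the alternatives), and that of Zfp212 without NC replicate 1 or 2, Hdac1/2 cKD replicate 2 or 3 or Sin3a KD replicate 1 (up to 0.166). That of Zfp949 was lost without NC replicate 2 or Hdac1/2 cKD replicate 2 or 3 (up to 0.114), and that of Zfp593 was kept only without NC replicate 2 or Hdac1/2 cKD replicate 3 (up to 0.153). Zfp593, a factor of large-subunit assembly chosen for mention after its values were seen, shares 77.9% of its exon length with the antisense gene E130218I03Rik. Zfp874a and its neighbour Zfp874b encode proteins with 92.9% identity. All 17 genes called lower were also lower within lane 2 and within lane 3, where their medians were -0.706 and -0.504, and all 5 called higher were higher in both, with medians of 0.945 and 1.36. For each of these genes the Hdac1/2 cKD and NC libraries did not overlap. Their signs within a lane were therefore fixed in advance and are no further support. Groups without overlap were found for 30.3% of the 165 genes, 33.1% of all tested genes and 38.1% of those of like level. The fit with lane as a factor kept 13 of the 22 calls and lost those of Zfp212, Zfp263, Zfp282, Zfp326, Zfp534, Zfp593, Zfp622, Zfp652 and Zfp874a. Without both libraries alone on their lanes 14 calls were kept, and Zfp212, Zfp263, Zfp282, Zfp534, Zfp593, Zfp622, Zfp652 and Zfp949 lost theirs. Of the 22 calls 15 were kept without trend and robust variances, which ended those of Zfp212, Zfp518b, Zfp534, Zfp593, Zfp622, Zfp706 and Zfp949. With equal totals 7 were lost, and the same 7 with only the 6 libraries compared: Zfp212, Zfp263, Zfp534, Zfp593, Zfp622, Zfp874a and Zfp949. Leaving out Hdac1/2 cKD replicate 1 left 3 higher and 11 lower, leaving out Hdac1/2 cKD replicate 2 left 9 lower, and leaving out NC replicate 2 gave 8 higher.

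**Figure D3:**
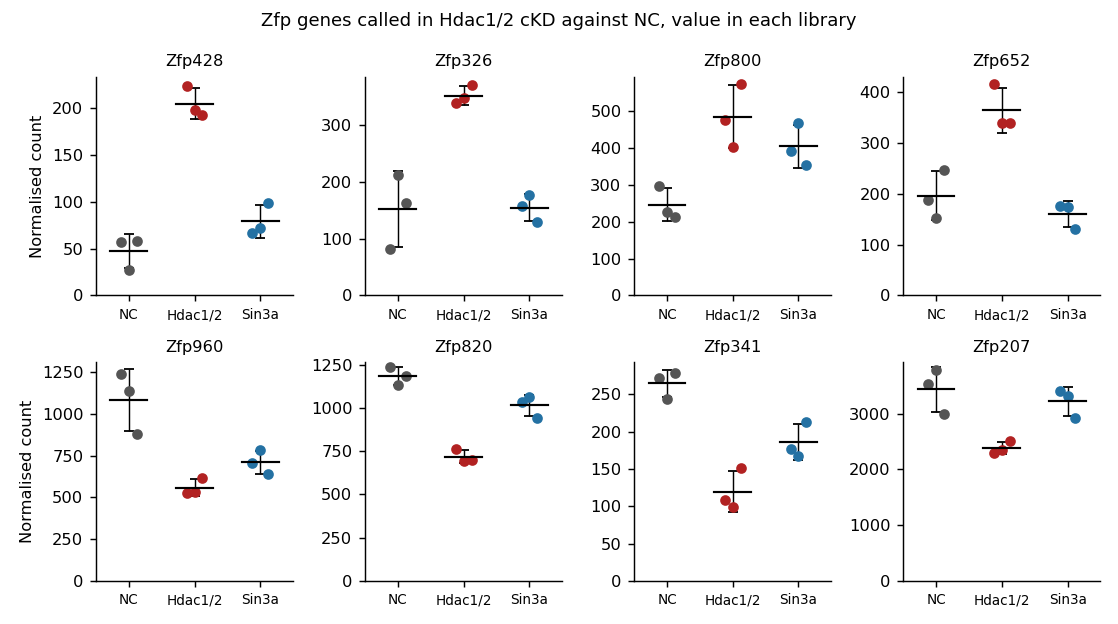
Normalised count of 8 Zfp genes called in Hdac1/2 cKD against NC, by group; points are libraries, horizontal lines the group mean and error bars the SD of 3 libraries. Hdac1/2 cKD libraries lie above all NC libraries for Zfp428, Zfp326, Zfp800 and Zfp652 and below them for Zfp960, Zfp820, Zfp341 and Zfp207.

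The second comparison asked the same of the scaffold protein. In Sin3a KD against NC 13 of the 165 genes were called by limma, 7 higher and 6 lower, or 7.88%. The share over all tested genes was 7.96% and over those with a mean of at least 100 it was 11.4%, so the Zfp share did not exceed the background here either. Zfp750, whose call is tied to the choice of members, is counted among the 7 and the 13. Called higher were 4.24% of Zfp genes, against 3.6% of all tested genes and 4.97% of those of like level, and called lower were 3.64%, against 4.36% and 6.44%. The median log2 fold change was 0.0247, against 0.0313 over all tested genes and -0.00784 over those of like level. It was -0.0188 without NC replicate 1 and -0.0279 without NC replicate 3. With libraries scaled to equal totals, where the median of all genes moved to 0.124, the counts were 12 higher and 5 lower. Without trend and robust variances in the moderation none was called, the lowest adjusted p being 0.0523, although 21 were higher and 14 lower at an unadjusted p below 0.05.

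Zfp703, a transcriptional corepressor of the NET family that carries no finger by the C2H2 pattern, rose. It was at 358, 347 and 215 in NC, 406, 300.2 and 336 in Hdac1/2 cKD and 734, 715 and 806 in Sin3a KD. The Sin3a KD libraries stood far above the other groups, which overlapped. The log2 fold change was 1.32 (SE 0.20, limma adjusted p = 0.0035), kept whichever library was left out and with lane as a factor. An antisense gene, Gm45371, shares 11.7% of its 31-base words.

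Zfp750, an activator of epidermal differentiation, is among the 7 genes counted as higher but reached the list only through Sin3a KD. It was at 63.5, 116 and 54.4 in NC and 205, 181 and 293 in Sin3a KD, without overlap, a log2 fold change of 1.57. Zfp319, Zfp146, Zfp664, Zfp800 and Zfp599 made up the rest, with log2 fold changes of 0.94, 0.88, 0.77, 0.72 and 0.56. These calls leaned on single libraries. That of Zfp319 was kept only without NC replicate 2 or Hdac1/2 cKD replicate 2 or 3 (adjusted p up to 0.23 over the alternatives), that of Zfp146 only without NC replicate 2 (up to 0.214) and that of Zfp800 only without NC replicate 1 or Hdac1/2 cKD replicate 2 or 3 (up to 0.15). That of Zfp664 was lost without NC replicate 1 or 3 or Sin3a KD replicate 1 or 3 (up to 0.228).

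Zfp710 fell from 1548, 851 and 1090.0 in NC to 384, 461 and 403 in Sin3a KD and was at 862, 807 and 920.0 in Hdac1/2 cKD. Sin3a KD lay below both other groups, and NC replicate 1 was high. Its log2 fold change was -1.44 (SE 0.19, limma adjusted p = 0.0021), kept whichever library was left out. Zfp947, a KRAB gene of the chromosome 17 cluster, had the lowest log2 fold change among the genes called, -1.68 (SE 0.29, adjusted p = 0.00542), from 445, 366 and 566 in NC to 111, 228 and 110.0 in Sin3a KD. Its call was kept whichever 1 library was left out, but was lost with lane as a factor and without both libraries alone on their lanes (adjusted p up to 0.087 over the alternatives). Of its 31-base words 36.7% occur in other genes.

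Zfp384, a DNA-binding factor of the nuclear matrix, was at 892, 674 and 760.2 in NC, 869.7, 895 and 997 in Hdac1/2 cKD and 434, 460.2 and 512 in Sin3a KD. It fell in Sin3a KD by 0.72 on the log2 scale (SE 0.14, limma adjusted p = 0.0106), and without Sin3a KD replicate 1 the call was lost (adjusted p up to 0.145). Zfp180 fell by 1.11 (adjusted p = 0.02), from 977, 712 and 716 to 459.5, 478 and 224, and lost its call without NC replicate 1 (adjusted p = 0.14 at most over the alternatives). The KRAB genes Zfp715 and Zfp960 fell by 0.77 and 0.60. The call of Zfp715 was kept only without NC replicate 2 (adjusted p up to 0.267), and that of Zfp960 was lost without NC replicate 1 or 2 or Sin3a KD replicate 1 or 3 (up to 0.246). Zfp191, at 130.3, 102 and 15.3 in Sin3a KD against 127, 247 and 285 in NC, had a log2 fold change of -1.79 with a wide error (SE 0.69, limma adjusted p = 0.153). It is on the list by role as Zfp24 but was not matched there, and was named after its values were seen.

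By class, 1 of the 46 KRAB genes rose and 3 fell in Sin3a KD, with a median log2 fold change of 0.0344. Of the 96 C2H2 genes without a match 4 were called higher and 3 lower, with a median of -0.0101. Called were 8.7% and 7.29% of these classes, against 7.96% of all tested genes and 11.4% of those of like level. Both medians changed sign with single libraries. That of the KRAB genes was -0.134 without NC replicate 1, -0.0402 without NC replicate 3, -0.0146 without Sin3a KD replicate 2 and -0.0545 without Sin3a KD replicate 3, and leaving out 1 library gave -0.0791 to 0.00976 for the C2H2 genes without a match. Within lane 3, the only lane with both groups, the KRAB median was -0.0401. All 7 genes called higher and all 6 called lower kept their sign there, with medians of 1.06 and -1.07. As the Sin3a KD and NC libraries of these genes did not overlap, their signs were fixed in advance and are no further support. Groups without overlap were found for 26.7% of the 165 genes, 27.1% of all tested genes and 32.6% of those of like level. The counts moved with single libraries. Calls of higher genes numbered 4 without NC replicate 1, 11 without NC replicate 2, 2 without NC replicate 3, 4 without Hdac1/2 cKD replicate 1, 1 without Sin3a KD replicate 1, 4 without Sin3a KD replicate 2 and 1 without Sin3a KD replicate 3. Calls of lower genes numbered 3 without NC replicate 1 and 3 without Sin3a KD replicate 1. The fit with lane as a factor gave 2 higher and 1 lower, so that 3 of the 13 calls were kept, those of Zfp664, Zfp703 and Zfp710. Without both libraries alone on their lanes Zfp703 and Zfp710 kept theirs, 2 of the 13.

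**Figure D4:**
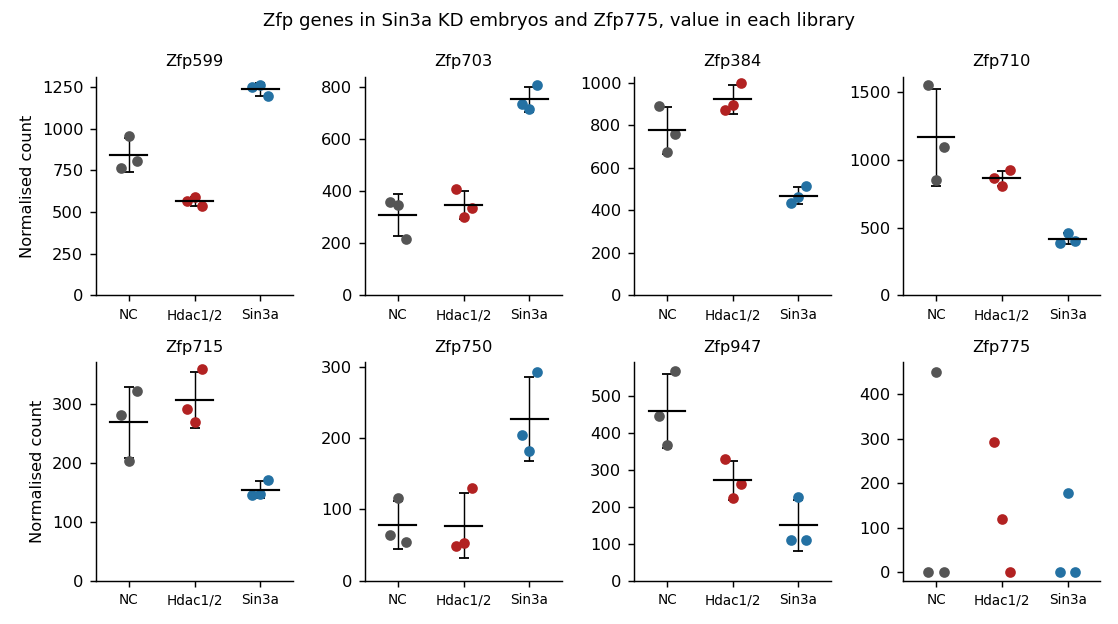
Normalised count of 7 Zfp genes called in Sin3a KD against NC, and of Zfp775, by group; points are libraries, horizontal lines the group mean and error bars the SD of 3 libraries, left out for Zfp775, which is listed at 0 in 5 libraries. Zfp599 is lowest in Hdac1/2 cKD and highest in Sin3a KD, while Zfp384, Zfp710 and Zfp715 are lowest in Sin3a KD.

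The third comparison set the knockdowns against each other. In Hdac1/2 cKD against Sin3a KD 36 of the 165 genes were called by limma, 15 higher and 21 lower in Hdac1/2 cKD, or 21.8%. The share was 17.3% over all tested genes and 23.5% over those with a mean of at least 100. The Zfp share was again close to that of genes of like level. Higher calls made up 8.49% of all tested genes and 10.9% of those of like level, and lower calls 8.78% and 12.6%. The median log2 difference was -0.077, against 0.00929 over all tested genes and -0.0219 over those of like level. Of the 46 KRAB genes 3 were higher and 7 lower, with a median of -0.172, and of the 96 C2H2 genes without a match 10 were higher and 9 lower, with a median of 0.125, which was 0.00232 without Hdac1/2 cKD replicate 1 and -0.0641 with lane as a factor. The KRAB median was -0.0928 without Hdac1/2 cKD replicate 3 and -0.101 without Sin3a KD replicate 2. Called were 21.7% of the KRAB genes and 19.8% of the C2H2 genes without a match, against the 17.3% and 23.5% above.

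Beside Zfp599, the calls kept in all 18 alternatives included Zfp384 (0.97, SE 0.14, limma adjusted p = 0.000561), Zfp710 (1.05, SE 0.19, adjusted p = 0.00184), Zfp703 (-1.12, SE 0.20, adjusted p = 0.00223) and Zfp652 (1.18, SE 0.23, adjusted p = 0.00321), as log2 values of Hdac1/2 cKD against Sin3a KD. The other 2 kept in all 18 were Zfp715 (0.98) and Zfp263 (-0.76). Zfp326, high in Hdac1/2 cKD, differed by 1.19 (adjusted p = 0.0147), a call lost with lane as a factor and without Hdac1/2 cKD replicate 3 or Sin3a KD replicate 3 (adjusted p up to 0.0602 over the alternatives). Zfp428 and Zfp750 are among the 36, and since each reached the list through 1 of the groups compared, their differences of 1.38 and -1.66 are a description. The lowest differences after that of Zfp750 were those of Zfp534 (-1.50), Zfp846 (-1.37) and Zfp672 (-1.18). The call of Zfp534 was lost without Hdac1/2 cKD replicate 1 or Sin3a KD replicate 2 (up to 0.129). The call of Zfp672 was lost without Hdac1/2 cKD replicate 2 or any 1 Sin3a KD library (up to 0.123), and that of Zfp846 was kept only without NC replicate 2 or 3 (up to 0.329). Zfp846 was at 82.3, 74.1 and 46.9 in Hdac1/2 cKD and 162, 171 and 182 in Sin3a KD, while its NC libraries spread over 135, 49.2 and 198.

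In lane 3, which held 1 Hdac1/2 cKD and 2 Sin3a KD libraries, all 15 higher and all 21 lower genes kept their sign, with medians of 1.04 and -0.77. Apart from Zfp947, the 2 groups did not overlap for these genes. Their signs were thus fixed in advance and are no further support. Groups without overlap were found for 45.5% of the 165 genes, 39.7% of all tested genes and 46.6% of those of like level. With lane as a factor 5 were higher and 5 lower, and 9 of the 36 calls were kept, those of Zfp146, Zfp263, Zfp384, Zfp599, Zfp652, Zfp664, Zfp703, Zfp710 and Zfp715. Without both libraries alone on their lanes 19 of the 36 were kept, and without trend and robust variances 18. Calls of higher genes numbered 6, 7 and 8 without Hdac1/2 cKD replicates 1, 2 and 3, and 7 and 8 without Sin3a KD replicates 1 and 3. Calls of lower genes numbered 12 without Hdac1/2 cKD replicate 1, 12 without Hdac1/2 cKD replicate 2, and 12, 11 and 13 without Sin3a KD replicates 1, 2 and 3.

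The comparisons of the 2 knockdowns with NC share the NC libraries, so their values are only placed side by side. Of the 165 genes, 133 were called in neither, 19 in Hdac1/2 cKD alone, 10 in Sin3a KD alone and 3 in both. Those 3 were Zfp800 (higher in both), Zfp960 (lower in both) and Zfp599. A gene called in 1 knockdown alone is not thereby shown to differ between them. In the direct comparison 10 of the genes lower and 3 of those higher in Hdac1/2 cKD alone were called the same way. It also called 5 of the genes lower and 4 of those higher in Sin3a KD alone, and 7 higher and 6 lower among the genes called in neither. Over all 3 comparisons 120 of the 165 genes were never called. Joint calls were not counted over all tested genes. These numbers therefore have no background beside them and only describe the 165.

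**Figure D5:**
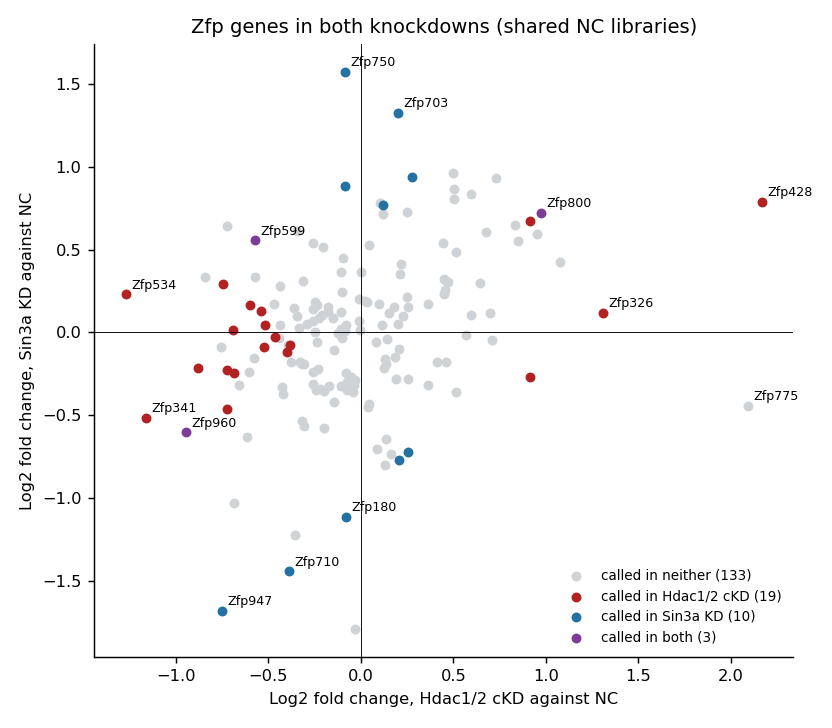
Log2 fold change of each of the 165 Zfp genes in Hdac1/2 cKD against NC (horizontal) and in Sin3a KD against NC (vertical), coloured by the limma calls (red in Hdac1/2 cKD alone, blue in Sin3a KD alone, purple in both); both axes use the same NC libraries. Zfp428 lies far right at 2.17, Zfp750 at the top at 1.57 and Zfp947 near the bottom at -1.68, and Zfp775, far right and grey, is listed at 0 in 5 libraries.

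Calls were also counted by cluster. Of the 61 clustered genes 2 rose and 4 fell in Hdac1/2 cKD against NC (9.84%), against 3 and 13 of the 104 outside (15.4%). Neither share was above the 15.6% of all tested genes or the 20.4% of those of like level. Of the 9 genes in the larger chromosome 17 cluster 1 fell, Zfp820, and the cluster's median log2 fold change was -0.146. In the chromosome 6 cluster, 1 of 5 rose (Zfp282) and 1 fell (Zfp212). The 8 genes of the other chromosome 17 cluster, 7 of them KRAB genes, had a median of -0.194 with none called by limma, and 0 at an unadjusted p below 0.05.

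Genes that work with the KRAB box were read from a separate list, of which 19 were tested. In Hdac1/2 cKD against NC 1 rose and none fell by limma at adjusted p below 0.05, with 1 lower at an unadjusted p. That is 5.26% called, against 15.6% of all tested genes and 20.4% of those of like level, since every tested gene of the list had a mean of at least 100. The one that rose was Cbx1, a heterochromatin protein, with a log2 fold change of 1.05 (SE 0.14, adjusted p = 0.000394). Trim28, the partner of the KRAB box, was at -0.24 (SE 0.11, adjusted p = 0.17) and Setdb1 at 0.02 (SE 0.13, adjusted p = 0.939). In Sin3a KD against NC 3 fell, the heterochromatin proteins Cbx5 (-0.73, adjusted p = 0.0111) and Cbx3 (-0.31, adjusted p = 0.0449) and the modifier Sumo2 (-0.99, adjusted p = 0.00297), with Trim28 at -0.23 (adjusted p = 0.235). The 3 are 15.8% of the list, against 7.96% of all tested genes and 11.4% of those of like level.

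Other zinc finger families of like level were counted beside the Zfp genes. For Hdac1/2 cKD against NC, 2 of 30 Zbtb genes rose and 4 fell, 1 of 9 Zscan and Zkscan genes rose, 1 of 12 Klf genes rose and 2 fell, and 1 of 6 Sp genes rose. These are 20%, 11.1%, 25% and 16.7% of the families, against 20.4% of all tested genes of like level. The 184 Zfp genes below the mean are no members. Of these 130 were tested, and 6 rose and 2 fell in Hdac1/2 cKD against NC, or 6.15%, against 15.6% of all tested genes. That 15.6% includes the genes with a mean of at least 100, called in 20.4%. It is thus not a share of like level, and the 2 shares cannot be set against each other.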

How the data were processed

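RNA from 9 pools of 60 embryos, 3 per siRNA group, was sequenced. The authors deposited 1 table of normalised read counts per gene, a signal scaled between libraries and not raw counts. Salmon, DESeq2 and GRCm38 are named in the submitters' processing notes, with versions not given in the sources used here. Only 63.6% to 76.8% of low values per library lay within 0.1 of a whole multiple of the smallest step, so whole reads were not recovered and no count test was run. Counting error per value is therefore unknown. The unnamed line, 0.00544% to 0.00896% of a library, was left out.

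Values were tested as log2(value + 1), on which changes of low genes are understated. Genes at 10 or more in at least 3 libraries, 13343 in all, entered 1 limma fit (limma 3.58.1, R 4.3.3) with a mean per group, 6 residual degrees of freedom, and trend and robust variances. P-values were adjusted by Benjamini-Hochberg over all tested genes and called below 0.05. The code was tested on simulated data. Alternatives changed the pseudocount, filter, moderation, scaling, lane, replicate block and libraries used.

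Named genes are the 8 highest and 8 lowest log2 fold changes in Hdac1/2 cKD against NC and the 6 and 6 of each other comparison among called genes whose groups do not overlap, the 5 highest means, the 5 on each side of the threshold, and a list by role. Other called genes were named after their values were seen. The members and lists were chosen with earlier results of these data known. Protein classes came from GENCODE vM21 reading frames, in place of RefSeq proteins, with Python 3.11.15. Promoters came from RefSeq on GRCm38.p6.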

Additional observations from a re-analysis of the deposited data

How the results depend on the processing

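Of 71 calls over the 3 comparisons, 16 were kept in all 18 alternatives, 25 whichever of the 9 libraries was left out, and 0 changed sign. These counts include the calls of Zfp428 and Zfp750, which are tied to the choice of members. In Hdac1/2 cKD against NC, 5 Zfp genes were higher and 17 lower. With libraries scaled to equal totals these were 10 and 10, and the median log2 fold change went from -0.0828 to 0.0295. Without trend and robust variances 10 were lower, and with only the 6 libraries compared 11. Leaving out 1 library gave 3 to 8 higher, 9 to 17 lower and medians of -0.107 to -0.0141. In Sin3a KD against NC, 7 were higher and 6 lower. Without trend and robust variances limma called 0 higher and 0 lower, with 21 and 14 at an unadjusted p below 0.05. With equal totals 12 were higher and the median went from 0.0247 to 0.119. Lane as a factor gave 2 higher and 1 lower, the 6 libraries alone 4 higher, and dropping both NC replicate 1 and Sin3a KD replicate 1, each alone on its lane, 1 higher and 1 lower. Leaving out 1 library gave 1 to 11 higher, 3 to 6 lower and medians of -0.0279 to 0.0506. In Hdac1/2 cKD against Sin3a KD, 15 were higher and 21 lower. Without trend and robust variances these were 8 and 11, with lane as a factor 5 and 5 with a median of -0.156 in place of -0.077, and 8 and 11 when NC replicate 1 and Sin3a KD replicate 1 were dropped. Leaving out 1 library gave 6 to 17 higher, 11 to 26 lower and medians of -0.119 to -0.0348. The wider KRAB pattern was chosen after seeing the data. Same-numbered libraries did not deviate together (correlations of -0.0193 to 0.0581), and not every library correlated best with its own number. The replicate block gave 7 higher and 17 lower in Hdac1/2 cKD against NC, 6 and 6 in Sin3a KD against NC, and 14 and 25 in Hdac1/2 cKD against Sin3a KD, keeping 22 of 22, 12 of 13 and 33 of 36 calls. The cause of these shifts was not tested.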
